A study of Mus musculus with 6 samples.

Results

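The fatty acid binding proteins are a family of small proteins of the cytosol, and the 7 genes examined here are Fabp1 to Fabp7. They were taken by name as a family, 7 of 19505 genes with a symbol on the array, and each was read from its only probe set. Expression was measured on 6 Affymetrix mouse arrays of RNA from samples labelled colon, all from C57BL/6J mice. The 3 arrays titled PBS came from control mice. The other 3 came from mice gavaged daily for 7 days with MBELN, exosome-like nanoparticles from the bark of mulberry, each dose in 100 µl. Age, sex and whether each array holds a separate animal are not given. The spread behind each p-value is that between these arrays, which carried different tissue markers, as described below. It cannot be read as a spread between animals.

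Each member of the family folds into a barrel with a cavity that holds a long-chain fatty acid, a bile acid or another fatty ligand, and carries it through the watery cytosol to membranes, mitochondria or the nucleus. The members are named for the tissues where they are abundant. Fabp1 is the liver form, which enterocytes of the small intestine also make, and Fabp2 is the intestinal form. Fabp3 is the heart and muscle form, Fabp4 the form of adipocytes, capillary endothelium and some macrophages, and Fabp5 the epidermal form. Fabp6 is the ileal form and carries bile acids, and Fabp7 is the brain form of radial glia and astrocytes.

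The deposited values are log2 expression. A value was taken as above background when it exceeded the 95th percentile of the negative control probe sets of the same array, a threshold that ranged from 7.93 (MBELN 1) to 10.11 (control 2). The share of all probe sets above it was 0.311% on control 2 and 14.3% (MBELN 2) to 27.7% (MBELN 1) on the other 5 arrays. Marker genes did not match the labelled tissue on 5 of the 6 arrays. Of 12 colonocyte markers, 11 were above background on control 1, 0 on control 2 and 1 on each of the other 4 arrays. Control 3 had 10 of 10 neuron markers above background, MBELN 1 had 10 of 10 heart markers, MBELN 2 had 10 of 10 squamous epithelium and 9 of 10 skeletal muscle markers, and MBELN 3 had 12 of 12 liver markers. Control 2 had 0 above background in each of the 13 marker lists. Arrays are therefore called by their labels, and a group mean below averages arrays with different tissue markers.

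**Figure D1:**
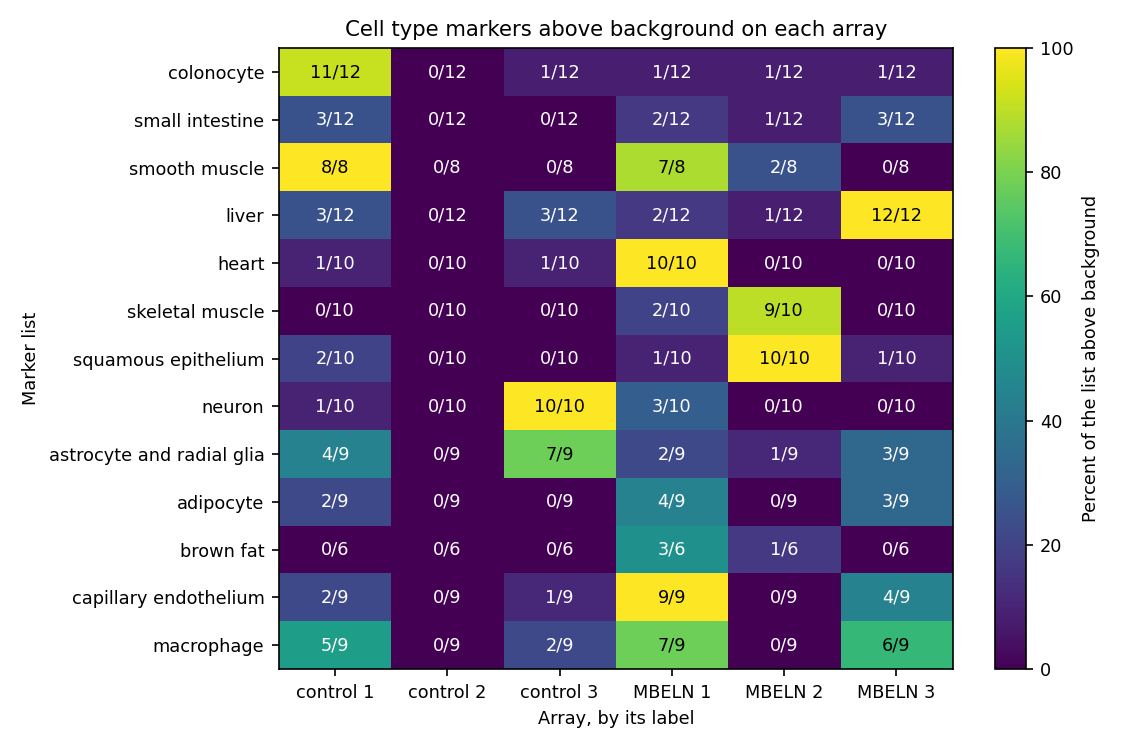
Number of genes of each cell type marker list above background (rows) on each array (columns), with the colour giving the percent of the list. Control 2 has 0 in every row, and 11 of 12 colonocyte markers are above background on control 1.

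Promoter sequence from RefSeq (GRCm38.p6) was matched by symbol for 5 of the 7 members (not Fabp4 and Fabp5). The 250 bases before the annotated start are shown for Fabp1, Fabp2 and Fabp6, the 3 members known from the intestinal epithelium, because Fabp1 and Fabp6 are textbook targets of nuclear receptors: Fabp1 of PPAR alpha, the fatty acid receptor, and Fabp6 of FXR, the bile acid receptor encoded by Nr1h4. The patterns searched on both strands, chosen after these sequences had been seen, were the nuclear receptor core motif AGGTCA, a direct repeat of this core with 1 base between the copies, and an inverted repeat with the core followed after 1 base by its reverse complement, TGACCT. The sequence TATAAA was searched on the printed strand. Capitals mark the TATAAA box and the repeats.
Fabp1, chr6:71199629-71199878, plus strand: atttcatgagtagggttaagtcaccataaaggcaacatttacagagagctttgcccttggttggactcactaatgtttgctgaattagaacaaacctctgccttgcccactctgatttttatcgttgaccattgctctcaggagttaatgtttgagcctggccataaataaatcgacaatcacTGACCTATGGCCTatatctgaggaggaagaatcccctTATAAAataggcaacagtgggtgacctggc
Fabp2, chr3:122894822-122895071, plus strand: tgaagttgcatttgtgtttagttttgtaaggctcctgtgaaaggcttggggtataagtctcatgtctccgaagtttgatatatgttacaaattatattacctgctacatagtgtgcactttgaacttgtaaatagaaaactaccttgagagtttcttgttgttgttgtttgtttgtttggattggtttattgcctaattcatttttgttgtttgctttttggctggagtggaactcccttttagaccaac
Fabp6, chr11:43601563-43601812, minus strand: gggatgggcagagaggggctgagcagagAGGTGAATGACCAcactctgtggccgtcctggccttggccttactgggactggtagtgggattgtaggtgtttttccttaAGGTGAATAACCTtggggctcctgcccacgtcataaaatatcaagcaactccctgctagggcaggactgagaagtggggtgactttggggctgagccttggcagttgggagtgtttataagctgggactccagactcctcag

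The Fabp1 window held a TATAAA box 30 to 25 bases before the start, which 7.59% of 32851 promoter windows of this length held. It also held a direct repeat with 1 mismatch, 67 to 55 bases before the start, and 0.484% of windows held such a repeat with at most 1 mismatch. That repeat overlaps 1 of the 2 exact core motifs of the window, and 14.02% of windows held the core. The Fabp6 window held 2 inverted repeats with up to 2 mismatches, at 222 to 210 and 142 to 130 bases before the start. That pattern was found in 0.959% of windows. With at most 1 mismatch, the allowance used for Fabp1, the Fabp6 window held no inverted repeat, while 0.0791% of windows did. The Fabp2 and Fabp3 windows matched none of these patterns, and the Fabp7 window held 1 core motif. The matches describe the letters only, and binding was not measured.

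Every Fabp gene was above background on at least 1 array, against 42.8% of all probe sets, and 5 of 7 were at the 99th percentile of negative controls, where Fabp5 and Fabp6 no longer passed, against 13.2% of all probe sets. Together they gave 14 values above background among 42 (33.3%), against 18.7% of all values. Their spread over the arrays was wide, with a median of 10.14 log2 units between the highest and the lowest array, against 2.83 over all probe sets. Control 1 had 3 of 7 above background (Fabp2, Fabp4 and Fabp6), control 2 had 0, control 3 had 2 (Fabp3 and Fabp7), MBELN 1 and MBELN 2 had 3 each (Fabp3, Fabp4 and Fabp5 on both) and MBELN 3 had 3 (Fabp1, Fabp2 and Fabp4). Fabp1, Fabp6 and Fabp7 were each above background on exactly 1 array, as were 36.9% of the probe sets above background anywhere. The 6 arrays differed in which tissue markers they carried and are not replicates of 1 tissue in that respect, so the order of arrays has no spread to be set against and was not tested. Values under the threshold have no order, and the level of 1 gene cannot be set against that of another on these arrays.

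**Figure D2:**
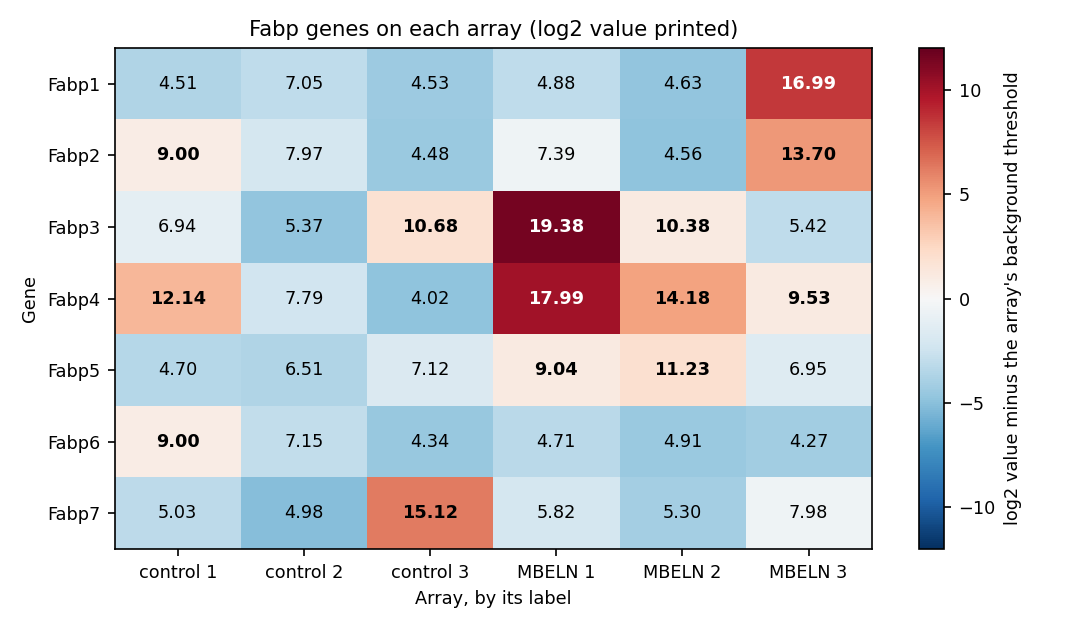
Log2 expression of the 7 Fabp genes (rows) on the 6 arrays (columns). The colour gives the value minus that array's background threshold, and bold numbers lie above it: Fabp3 reaches 19.38 on MBELN 1, Fabp1 16.99 on MBELN 3 and Fabp7 15.12 on control 3, and no gene is bold on control 2.

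Fabp1, which carries fatty acids and other ligands in hepatocytes, was high on MBELN 3 alone. Its log2 values were 4.51, 7.05 and 4.53 on control 1 to 3 and 4.88, 4.63 and 16.99 on MBELN 1 to 3. The last value lay 8.52 log2 units above its array's threshold, and at least 6.89 above every other array when values under background were set to their threshold. MBELN 3 was also the array with 12 of 12 liver markers above background. On control 1, the array with colonocyte markers, Fabp1 was not above background.

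Fabp2, the intestinal form, was also highest on MBELN 3. It stood at 9.00, 7.97 and 4.48 on control 1 to 3 and 7.39, 4.56 and 13.70 on MBELN 1 to 3. Control 1 and MBELN 3 alone were above background, control 1 by 0.85 log2 units and MBELN 3 by 5.24. Among the 12 small intestine markers, 3 were above background on MBELN 3, 3 on control 1, 2 on MBELN 1 and 1 on MBELN 2. On MBELN 3, the array with 12 of 12 liver markers, they were Apoa4 (19.58), Anpep (13.26) and Slc10a2 (10.27). On control 1 they were Mep1a (15.04), Slc5a1 (10.26) and Anpep (9.33). Anpep was also above background on MBELN 1 (10.43) and MBELN 2 (12.76), and Apoa4 on MBELN 1 (9.62). The brush border enzymes Lct and Sis, which define absorptive cells of the small intestine, were above background on no array, at 3.98 to 5.81 and 4.57 to 5.14. The part of small intestine cells in the Fabp2 values was not tested.

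Fabp6 was above background on control 1 alone. Its values were 9.00, 7.15 and 4.34 on control 1 to 3 and 4.71, 4.91 and 4.27 on MBELN 1 to 3. Control 1 passed its threshold of 8.14 by 0.85 log2 units, a value under the thresholds of control 2 (10.11) and MBELN 2 (9.34), so no order against those arrays can be read. Of 6 genes of ileal bile acid handling, 2 were above background on control 1 and 2 on MBELN 3. Nr1h4, the bile acid receptor, was at 10.74 on control 1 and 11.20 on MBELN 3. Slc51b, a subunit of the basolateral bile acid exporter, was at 9.33 on control 1 and under background elsewhere. Slc10a2, which takes up bile acids at the apical membrane, was above background on MBELN 3 (10.27) and not on control 1 (7.16).

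Fabp3, which supplies fatty acids to mitochondria of heart and oxidative muscle, was highest on MBELN 1. It stood at 6.94, 5.37 and 10.68 on control 1 to 3 and 19.38, 10.38 and 5.42 on MBELN 1 to 3. MBELN 1, with 10 of 10 heart markers, lay 8.70 log2 units above control 3, the next array. Control 3 and MBELN 2, the arrays with neuron markers and with squamous and skeletal muscle markers, differed by less than 1 log2 unit and both passed their thresholds.

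Fabp4 was above background on more arrays than any other member, 4 of 6. Its values were 12.14, 7.79 and 4.02 on control 1 to 3 and 17.99, 14.18 and 9.53 on MBELN 1 to 3. All MBELN arrays and control 1 passed, and control 2 and control 3 did not. On MBELN 1, 9 of 9 markers of capillary endothelium, 7 of 9 of macrophages and 4 of 9 of adipocytes were above background. On MBELN 3 these counts were 4, 6 and 3 of 9, and on control 1 they were 2, 5 and 2. On MBELN 2 each of these 3 lists had 0 of 9 above background, with medians of 5.92, 5.59 and 6.62. Fabp4 passed its threshold there by 4.85 log2 units. At the 99th percentile of negative controls, 14.58 on MBELN 2, Fabp4 did not pass on MBELN 2 or MBELN 3. It still passed on control 1 and MBELN 1. Adipoq, the adipocyte hormone adiponectin, was above background on control 1 (10.27) and MBELN 1 (8.64) and at 4.45 to 6.62 on the other arrays. The part of these cells in the Fabp4 values was not tested, and on bulk RNA fewer cells of a type and less RNA per cell cannot be told apart.

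Fabp5, which also binds retinoic acid in keratinocytes, was highest on MBELN 2. Its values were 4.70, 6.51 and 7.12 on control 1 to 3 and 9.04, 11.23 and 6.95 on MBELN 1 to 3. MBELN 1 passed its threshold by 1.10 log2 units and MBELN 2 by 1.90. MBELN 2 was the array with 10 of 10 squamous epithelium markers.

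Fabp7 was high on control 3 alone. It stood at 5.03, 4.98 and 15.12 on control 1 to 3 and 5.82, 5.30 and 7.98 on MBELN 1 to 3. Control 3 lay 6.23 log2 units above its threshold, and MBELN 3 lay 0.49 units under its own. Of 9 measured markers of astrocytes and radial glia, 7 were above background on control 3, against 4 on control 1 and at most 3 elsewhere. Gfap, the astrocyte filament protein, and Slc1a3, a glial glutamate transporter, were at 9.46 and 12.91 on control 3 and above background on no other array. Other genes of the list differed. Aldh1l1 and Sox2 were under background on control 3, at 7.29 and 7.97, and Aldh1l1 was at 16.73 on MBELN 3. Gja1 was at 11.93 on control 3 but at 13.90 on MBELN 1 and 16.64 on MBELN 2.

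Close relatives of the family were mostly under background. Of 7 measured members of the wider family of intracellular lipid binding proteins (Fabp9, Fabp12, the myelin protein Pmp2, and the retinoid carriers Crabp1, Crabp2, Rbp2 and Rbp7), 1 was above background on any array. That gene, Crabp2, a carrier of retinoic acid, was at 11.86 on MBELN 2 and at 4.75 to 6.29 on the other arrays. In the RefSeq order of protein-coding genes, Fabp5, Pmp2, Fabp9, Fabp4 and Fabp12 follow each other directly. Fabp5 and Fabp4 were above background on 2 and 4 arrays, and the 3 genes beside them on none, with values from 3.91 to 5.97.

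The comparison between groups sets the MBELN arrays against the control arrays. Because the arrays carried different tissue markers, treatment and tissue cannot be told apart in it. The same holds for the group differences of the gene lists further below. No member passed limma's test with Benjamini-Hochberg adjustment over 22206 probe sets: 0 of 7 had an adjusted p under 0.05, where 0% of all probe sets did. At an unadjusted p under 0.05, 0 of 7 passed, against 1.37% of all probe sets higher and 0.531% lower on MBELN arrays, and a plain t statistic also gave 0 of 7. In some of the 16 settings tried, 1 or 2 members were under it. Brackets give how many of all 22206 probe sets were under it in the same setting. Fabp4 was under it with the replicate block (624), without control 1 (1380) and without MBELN 3 (296). Fabp5 was with equal medians (420) and without MBELN 3 (296), and Fabp6 with array weights (723) and without control 3 (527). None passed after adjustment in those settings. The groups overlapped for all 7 members, while they did not overlap for 6.83% of all probe sets. Means were higher on MBELN arrays for 5 of 7 members, against 49.6% of all probe sets, and the median log2 difference was 2.96, against -0.0082 over all probe sets. Without control 2, where no member was above background, the median was 2.92, and without both control 2 and control 3 it was 1.76.

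With all 6 arrays, Fabp4 had the largest fitted difference of the 7 members. For Fabp2, Fabp3 and Fabp4 some arrays were under background, so the model gives a difference there but no measured fold. Its MBELN mean was 13.90 ± 4.24 and its control mean 7.98 ± 4.07 (SD, n = 3 each), a log2 difference of 5.92 (SE 2.82) with a limma adjusted p of 0.936. The lowest MBELN array, MBELN 3 at 9.53, lay under control 1 at 12.14. The difference was 3.93 without control 3, 3.87 without MBELN 1 and 1.76 without both control 2 and control 3. Fabp5 was 9.07 ± 2.14 in MBELN and 6.11 ± 1.26 in control (SD, n = 3 each), with a fitted log2 difference of 2.96 (SE 1.25) and the same adjusted p. Fabp5 was above background on 0 control arrays, so no measured fold is given. The MBELN mean was 1.02-fold the background levels of the control arrays. MBELN 3, itself under background, enters that mean at its deposited value, so this bound is not a strict lower limit. The overlap of the Fabp5 groups rests on MBELN 3 (6.95) and control 3 (7.12), both under background.

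Fabp3 was 11.73 ± 7.08 in MBELN and 7.66 ± 2.73 in control (SD, n = 3 each), a log2 difference of 4.07 (SE 3.63), which was 0.24 without MBELN 1. Fabp1 was 8.83 ± 7.07 in MBELN and 5.37 ± 1.46 in control. Its fitted difference of 3.47 (SE 3.45) became -0.61 without MBELN 3, and no fold is given because it was above background on 0 control arrays and its bound was under 1. Fabp2 was 8.55 ± 4.68 in MBELN and 7.15 ± 2.37 in control, a difference of 1.40 (SE 2.53) that became -1.18 without MBELN 3.

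Fabp6 and Fabp7 had lower means on MBELN arrays, where neither was above background. Fabp6 was 6.83 ± 2.34 in control and 4.63 ± 0.33 in MBELN (SD, n = 3 each), a fitted log2 difference of -2.20 (SE 1.20). The Fabp6 difference was -1.12 without control 1 and -3.44 without control 3. Fabp7 was 8.38 ± 5.84 in control and 6.36 ± 1.42 in MBELN, a fitted difference of -2.01 (SE 2.89) that became 1.36 without control 3. Both bounds were under 1, so no fold is given. Adjusted p was 0.936 for 6 of the 7 members and 0.938 for Fabp2.

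**Figure D3:**
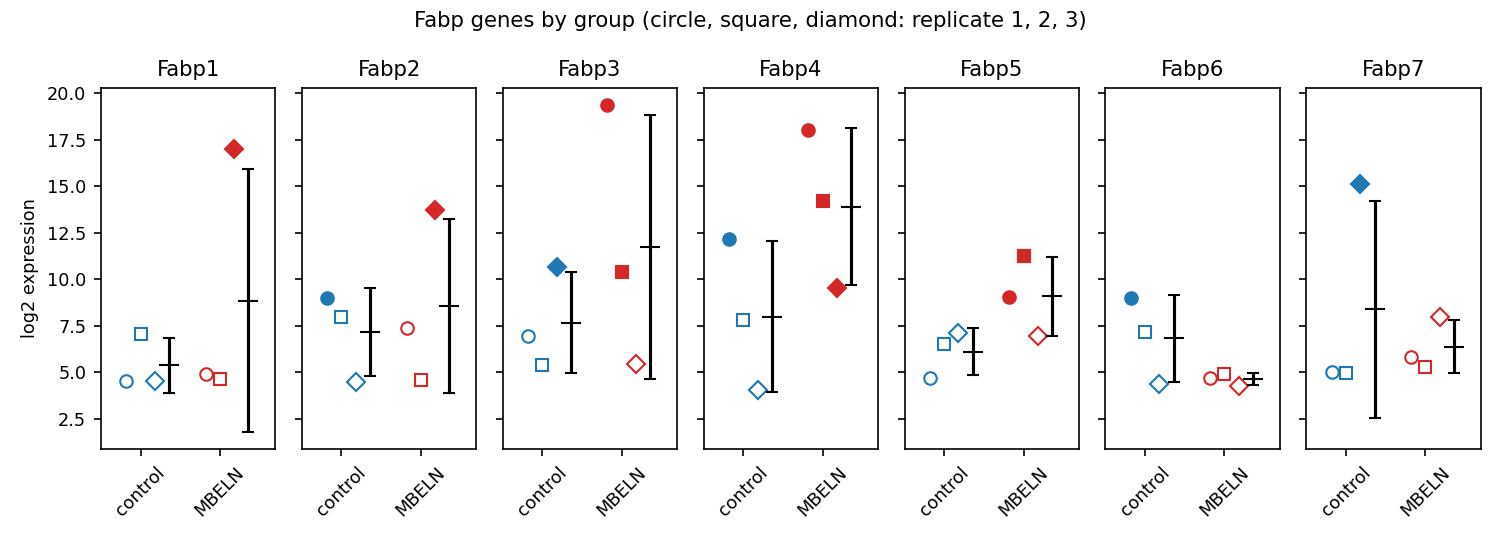
Log2 expression of each Fabp gene by group, with circle, square and diamond for replicates 1, 2 and 3, filled where above background, and black bars for the mean ± SD (n = 3). The groups overlap in all 7 panels, and Fabp4 has all 3 MBELN points filled against 1 control point.

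**Figure D4:**
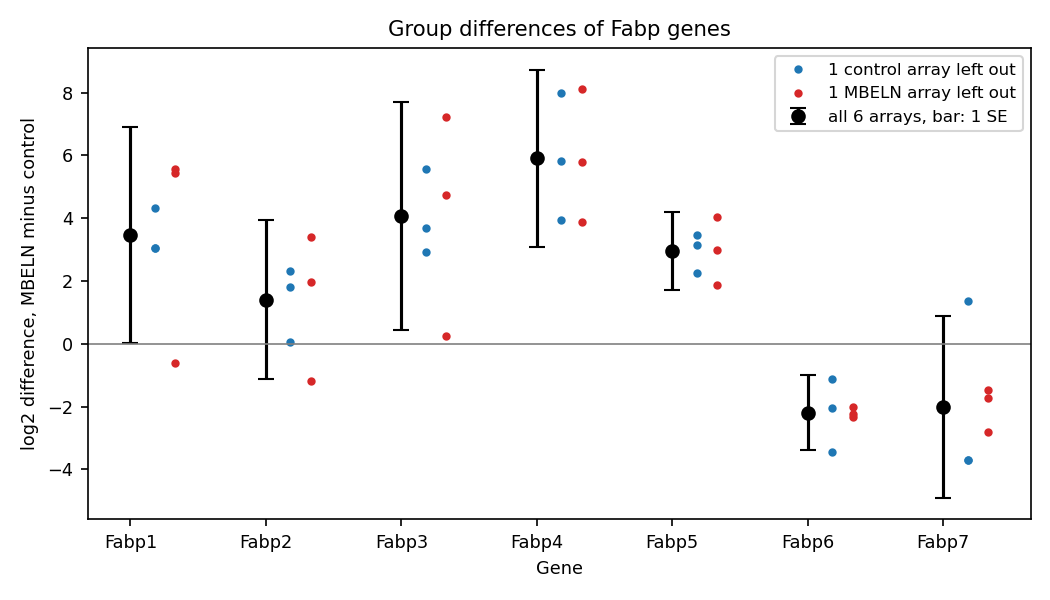
Fitted log2 difference (MBELN minus control) of each Fabp gene with all 6 arrays (black, bar 1 SE) and with 1 control array (blue) or 1 MBELN array (red) left out. The difference of Fabp1, Fabp2 and Fabp7 changes sign when 1 array is left out, and that of Fabp4 lies between 3.87 and 8.10.

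Genes that deliver fatty acids to these carriers, by uptake at the membrane or by activation to acyl-CoA, were described from a list of 16, of which 14 were measured. None passed after adjustment. At an unadjusted p under 0.05, 4 were higher on MBELN arrays and 0 lower, against 1.37% and 0.531% of all probe sets. The list's median log2 difference was 2.95. Cd36, a fatty acid transporter, was at 9.72, 5.08 and 4.30 on control 1 to 3 and at 16.32, 9.91 and 12.99 on MBELN 1 to 3, a log2 difference of 6.71 (SE 2.10). Dbi, which carries acyl-CoA, had a difference of 6.34 (SE 2.16) and Acsl5, an acyl-CoA synthetase, one of 5.27 (SE 1.81). The fourth was Gpihbp1, which anchors lipoprotein lipase in capillaries, at 2.79 (SE 1.11). Without control 2, where 0 of 14 were above background, 1 of the 14 remained under an unadjusted p of 0.05, Dbi, against 1.02% of all probe sets higher and 1.71% lower in that fit, and the list's median was 2.35. Without both control 2 and control 3, 0 of 14 were, against 0.612% of all probe sets higher and 4.39% lower, and the list's median was 2.57.

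Some members of this list were high on the same arrays as Fabp genes. Slc27a2, an acyl-CoA synthetase and fatty acid transporter of liver, was at 18.38 on MBELN 3, where Fabp1 was highest, and at 4.12 to 5.93 on the others. Lpl, the lipase that frees fatty acids from lipoproteins, was at 18.18 on MBELN 1, where Fabp3 and Fabp4 were highest, at 10.11 on MBELN 2 and under background on the other 4 arrays. These are descriptions of single arrays.

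Genes of fatty acid storage and release showed 2 of 13 with an unadjusted p under 0.05, both higher on MBELN arrays. Of all probe sets, 1.37% were higher and 0.531% lower at that level. The 2 genes were Plin4, a lipid droplet coat protein (2.07, SE 0.66), and Dgat2, which makes triglyceride (4.63, SE 1.84). The list's median difference was 2.23. Without control 2, 1 of the 13 was left, Plin4, against the same 1.02% and 1.71% of all probe sets, and the median was 2.13. Without both control 2 and control 3, 0 of 13 were left, against the same 0.612% and 4.39%, and the median was 1.26. Of 11 measured nuclear receptors and other regulators of fatty acid genes, 1 was higher at that level with all arrays, Cebpa (4.31, SE 1.66). This stands against the same 1.37% of all probe sets higher and 0.531% lower. Without control 2, 0 of 11 were, against the same 1.02% and 1.71%. The list's median went from 0.97 to 0.078 there, against 0.079 over all probe sets. Without both control 2 and control 3 it was 0.17, against 0.095 over all probe sets. Ppara, the fatty acid receptor, was at 12.04 on MBELN 3 and under background on the other arrays. Hnf4a, a regulator of liver and gut epithelium, was at 13.97 on control 1 and 13.83 on MBELN 3 and at 4.08 to 6.71 on the others, so that 1 of the 2 arrays with Hnf4a above background had Fabp1 above background and both had Fabp2.

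Likeness to each member was measured as the root mean square difference between profiles over the 6 arrays, each centred on its own mean, among 8535 genes above background somewhere. The closest to Fabp1 were C8g, a chain of complement, at 0.22 log2 units, and the cytochrome P450 genes Cyp2a12 and Cyp2j5, at 0.32 and 0.36. Closest to Fabp2 were Blvrb (0.75), Lgals9 (0.76) and Dnajc22 (0.82), all highest on MBELN 3. Closest to Fabp3 were Cryab, a small heat shock protein (1.30), the sarcomere gene Actn2 (1.48) and the atrial myosin light chain gene Myl4 (1.74). Closest to Fabp4 were Hspb6 (1.25), Cbr2 (1.77) and Hspb1 (1.86). Hspb6 stood at 12.17, 7.45 and 6.61 on control 1 to 3 and at 18.66, 12.63 and 9.94 on MBELN 1 to 3.

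Closest to Fabp5 were the Notch ligand gene Jag2 (0.84), Sema3f (0.87) and Ptpn14 (0.96), all highest on MBELN 2. Closest to Fabp6 were Fut4 (0.25), Lrrc66 (0.30) and Tinag (0.30), all highest on control 1. Closest to Fabp7 were Erc2 (0.45) and Agap2 (0.74), genes of neurons, and the myelin gene Mobp (0.85), all highest on control 3. For Fabp7 the same 3 genes were closest without control 2. In that setting the genes named for Fabp6 ranked 11, 8 and 20, for Fabp2 6, 7 and 9, and for Fabp1 3, 6 and 8. Those named for Fabp3 ranked 2, 1 and 5, for Fabp4 1, 3 and 4, and for Fabp5 3, 2 and 9. Fabp1, Fabp6 and Fabp7 were above background on 1 array each, so their distances also use values under background. With so few arrays and 1 array high, many genes lie near a member, so these distances describe the arrays only.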

How the data were processed

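Biotin-labelled cRNA from 90 ng of total RNA was hybridised, per the labels' protocols, and the same protocol text also names an amplicon panel. The authors deposited log2 expression for 28846 probe sets; the scale was read from the values, which end at log2 of 1000000 (19.93). The submitters' processing notes name Transcriptome Analysis Console 4.0; for summarisation and normalisation the entry is: not given in the sources used here. Values were used as deposited, without 6640 control probe sets. Symbols came from the platform annotation and were matched to RefSeq by Entrez number (19572 of 22206 probe sets). Groups were compared with limma 3.58.1 in R 4.3.3 (lmFit, eBayes, 2-sided, Benjamini-Hochberg over 22206 probe sets); the script was tested on simulated data. The fit without control 2 and control 3 and the plain t statistic were added after the data were seen.

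Members and lists were chosen with earlier results of these data known. The genes named were the 7 members, up to 3 genes per list by smallest unadjusted p or highest value on the array discussed, and the 3 closest profiles per member, without predicted genes, small RNAs and olfactory or vomeronasal receptors. Gpihbp1 (as the fourth of its list), the single markers and Crabp2 lie outside this rule: their values had been seen when they were picked. A bound sets the brighter group's mean of deposited values against the dimmer group's mean, in which each value under its array's threshold was raised to it. Values under background in the brighter group were left as deposited, so a bound is not a strict lower limit. The number of arrays limits the precision.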

Additional observations from a re-analysis of the deposited data

How the results depend on the processing

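No Fabp gene passed the adjusted test in any of the 16 settings tried for it, the deposited values included, and the lowest adjusted p of a member was 0.176 (Fabp6, without control 2 and control 3). Members under an unadjusted p of 0.05 in limma's test follow, with the number of all 22206 probe sets under it in that setting. Fabp4 was under it with the replicate block (0.00039, 624 probe sets), without control 1 (0.0332, 1380) and without MBELN 3 (0.0286, 296). Fabp5 was with equal medians (0.0445, 420) and without MBELN 3 (0.0151, 296). Fabp6 was with array weights (0.0479, 723) and without control 3 (0.00588, 527). Over all probe sets 0 passed after adjustment in each setting that kept control 2 or control 3. In the fit without both, the lone control array is assumed to vary like the others. Leaving out 1 array at a time gave log2 differences from -0.61 to 5.57 for Fabp1, -1.18 to 3.40 for Fabp2, 0.24 to 7.22 for Fabp3, 3.87 to 8.10 for Fabp4, 1.88 to 4.03 for Fabp5, -3.44 to -1.12 for Fabp6 and -3.71 to 1.36 for Fabp7. Without both control 2 and control 3, Fabp2 stood at -0.45, Fabp7 at 1.33 and Fabp6 at -4.37. The signs of Fabp3, Fabp4, Fabp5 and Fabp6 were the same in every setting that gave a value, and Fabp6 fell out under the filter at the median. Fabp6 was above background on control 1 alone, so its sign and unadjusted p rest largely on values under background. Quantile normalisation, equal medians, array weights, the filters and the other prior turned no sign, though Fabp2 stood at 0.15 under quantile normalisation against 1.40, and the highest array of all 7 members was the same under both normalisations. Every member has 1 probe set, so averaging probe sets changed nothing. With the 90th percentile of negative controls as threshold 16 of 42 member values were above background, and with the 99th 6, against 14.

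Deviations of same-numbered arrays correlated at 0.11, 0.12 and -0.051 over probe sets, and those of differently numbered arrays at -0.18 to 0.096. Because the arrays carried different tissue markers, these values cannot decide whether the replicate numbers mark a pairing. With the replicate block 0 members and 0 probe sets passed (lowest adjusted p 0.919), and Fabp4 kept its difference of 5.92, with an SE of 0.52 in place of 2.82.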

Other observations

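Brown fat genes were read beside Fabp3 and Fabp4, which brown adipocytes also make. Of 6 markers, 3 were above background on MBELN 1, 1 on MBELN 2 and 0 on the other 4 arrays. Ucp1, the uncoupling protein that defines brown fat, was at 10.42 on MBELN 1 and at 4.10 to 6.31 elsewhere. Cidea, a lipid droplet protein, was at 9.06 on MBELN 1 and 10.60 on MBELN 2, with 4.82 to 7.22 on the other arrays. Cox8b, a respiratory subunit also made in heart, was at 17.71 on MBELN 1. The part of brown fat in the Fabp3 and Fabp4 values was not tested.

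Plin1, the droplet coat protein of fat cells, was above background on no array, at 4.76 to 7.31, while Fabp4 was above it on 4. Clec4f, a marker of liver macrophages, was at 10.30 on MBELN 3 and at 3.96 to 5.29 elsewhere. Fabp4 was lower on MBELN 3 (9.53) than on the other 3 arrays where it was above background.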
